A study of Rattus norvegicus with 16 samples.

Results

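The genes of the cytosolic ribosomal proteins were followed in the liver of male Sprague-Dawley rat pups 21 days old. They were taken from the arrays by name: every probe whose RefSeq identifier belongs to a gene of the Rpl or Rps series, or to Rplp0, Rplp1, Rplp2 or Rpsa, with the Rps6k kinases and pseudogenes left out. That gave 141 probes of 80 genes, of which 135 probes of 76 genes passed the filter on dim probes, among 12072 genes and identifiers tested in all. The brightest kept probe stood for each gene. Of the 80 genes, 73 carry the standard symbol of a ribosomal protein, 44 of the large subunit and 29 of the small one, and all 73 were kept. The other 7 are copies or paralogs, of which Rpl22l1, Rpl37l1 and Rps4y2 were kept. Rpl3l, Rpl27l2, Rpl39l1 and Rps12l4 were not well above background on enough arrays (at most 2, 0, 1 and 0 of the 16 arrays) and have no level here. All 76 kept genes were well above background in Cy5 on all 16 arrays.

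There were 4 groups of 4 arrays, and each array held pooled liver RNA of 2 pups. Group C pups came from dams given corn oil only and stayed with their own dams, and group CC pups had the same exposure but were cross-fostered at birth. Group M pups came from dams given 1 mg/kg/day of a mixture of methyl mercury, organochlorine pesticides and polychlorinated biphenyls in corn oil through gestation and nursing and stayed with their own dams, and group MM pups were the cross-fostered counterpart, exposed before and after birth. The measured value was a log2 ratio of Cy5, the liver RNA, to Cy3, a universal reference RNA made from 14 rat cell lines, scaled within each array by a loess curve over brightness. Slide 1 carried the C and CC arrays and slide 2 the M and MM arrays, so mixture and slide cannot be told apart in either mixture comparison. Nothing in the labels says which litter a pool came from, so p-values measure the spread between these arrays.

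A ribosome joins a large and a small subunit, each an rRNA scaffold with ribosomal proteins that are needed in about equal numbers, and liver cells make large amounts of it to supply plasma proteins. Ribosomal protein mRNAs are among the most abundant in a cell and commonly begin with a C followed by a run of pyrimidines, the terminal oligopyrimidine start through which mTOR signalling and the binding protein Larp1 set their translation. Each protein gene has many processed pseudogenes, so a probe can also bind related transcripts.

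RefSeq promoter entries of build GRCr8 were found for 61 of the 76 genes, in 62 entries. A first base of C followed by at least 4 further C or T bases on the transcribed strand was present in 37.1% of the members' entries and in 2.63% of the 33469 entries of all genes. A run of that kind that began anywhere from 4 bases before to 9 bases after the annotated start was present in 61.3% and 20.1%. The windows below run from 10 bases before the annotated start through the first 20 transcribed bases, and show members on which the results turn. Capitals mark the pyrimidine run that opens the transcript, and windows without capitals have none at the annotated first base. Rplp0 lies at chr12:46718371-46718400 on the minus strand, Rplp1 at chr8:71290853-71290882 on the minus strand, Rpl14 at chr8:129163610-129163639 on the plus strand and Rps15 at chr7:10068096-10068125 on the minus strand. Rpl19 lies at chr10:83519054-83519083 on the plus strand, Rps18 at chr20:4933735-4933764 on the plus strand, Rpl18 at chr1:105325260-105325289 on the plus strand and Rpl27a at chr1:172974563-172974592 on the plus strand.
Rplp0: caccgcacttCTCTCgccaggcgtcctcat
Rplp1: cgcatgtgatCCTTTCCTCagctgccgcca
Rpl14: ggccctctccCTTCTCgctgagcgccgcca
Rps15: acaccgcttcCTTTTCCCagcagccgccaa
Rpl19: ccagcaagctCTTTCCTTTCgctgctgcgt
Rps18: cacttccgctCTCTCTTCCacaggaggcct
Rpl18: acctggtctagcaggaggcgccatcatggt
Rpl27a: cttggtgggctcctccctctttcttttctg

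The 76 genes were spread over 19 chromosomes, with 13 on chromosome 1. Their probes were bright: 27 of the 100 brightest probes on the arrays and 72 of the 300 brightest were members'. Within groups they varied little, with a median SD over arrays of 0.122 on the log2 ratio, against 0.148 over all genes tested. Rpl3, Rpl30 and Rpl8, all proteins of the large subunit, had the smallest within-group SD at 0.06, 0.064 and 0.067. The largest SDs belonged to Rpl12, a protein at the base of the stalk, at 0.359, to the paralog Rpl22l1 at 0.332 and to Rps28, a small-subunit protein near the mRNA exit, at 0.308. The largest SD of Rpl12 was on the MM arrays, where its log2 ratio was -0.24, -0.22, -1.47 and -0.63. Rps28 was likewise lowest on MM 3, at -1.05, and highest on CC 1, at 0.49.

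Most members had less signal in pup liver than in the reference RNA. Over the C arrays the median log2 ratio of the 76 genes was -0.39, and 65 lay below 0, whereas the median over all genes tested was 0.13 and 43.8% lay below 0. Each probe is set only against the same probe in the other channel, and because dyes were not swapped, dye and tissue cannot be told apart. The members' median over C stayed below 0 under the 7 ways of making the ratio, from -1.57 with median centring to -0.22 with the scanner software's ratio. The lowest mean ratios over C were those of Rpl5, -1.27 ± 0.05 (SD, n = 4), Rps25, -1.02 ± 0.18 (SD, n = 4), Rpl3, -1.01 ± 0.07 (SD, n = 4), and Rpl27a, -0.98 ± 0.1 (SD, n = 4). The highest were those of Rpl38, 0.8 ± 0.09 (SD, n = 4), Rps29, 0.47 ± 0.07 (SD, n = 4), Rpl41, 0.46 ± 0.04 (SD, n = 4), and Rpl22l1, 0.34 ± 0.19 (SD, n = 4). On the loess ratio the first 4 stood below the reference on all 4 C arrays and the last 4 above it on all 4. The side of 0 depended on the scaling. With median centring all 76 members lay below 0 over C, the highest at -0.44. With the members' own probes given no weight in the loess curve 74 did, and the highest mean was 0.22.

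In pups kept with their own dams, 18 members were lower in group M than in group C and none was higher. The median difference of the 76 members was -0.16 on the log2 ratio, against -0.05 over all genes tested, and 69 members lay below 0. By limma with Benjamini-Hochberg adjustment over all genes, 23.7% of the members were lower, against a background of 12.2% of all genes lower and 8.19% higher. Among the standard genes, 14 of 44 of the large subunit and 3 of 29 of the small subunit were lower, with medians of -0.17 and -0.11. On the single arrays, 24 members were lower on all 4 M arrays than on every C array, a pattern found in 15.3% of all genes. The count depended on single arrays, being 6 without C 9 or without C 10, 7 without M 5 or without M 8 and 10 without C 11. It was also 10 when dim probes were not filtered out and 4 within each array row. A fit on fewer arrays can call fewer genes of any kind, and its part in these counts was not tested.

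Among the members that fell in M against C, Rpl23a, a large-subunit protein beside the exit of the nascent chain, had log2 ratios of -0.49, -0.7, -0.7 and -0.64 on C and -1.07, -1.15, -1.1 and -1.2 on M. The groups did not overlap, and M was lower by a log2 difference of -0.49 (SE 0.0758, adjusted p = 0.000329 by limma), a ratio of 0.71. Rpl18, a large-subunit protein, read 0.17, 0.17, 0.09 and -0.07 on C and -0.2, -0.26, -0.52 and -0.45 on M, a difference of -0.45 (SE 0.0921, limma adjusted p = 0.00279). All M arrays lay below all C arrays there as well. Rpl37l1, a copy of Rpl37 by its symbol, had a difference of -0.46 (limma adjusted p = 0.00111) and Rpl14, of the large subunit, one of -0.35 (limma adjusted p = 0.00743). Rpl38, a large-subunit protein known from skeletal patterning mutants in mice, had log2 ratios of 0.76, 0.83, 0.69 and 0.9 on C and 0.17, 0.58, 0.59 and 0.48 on M. M 5 stood lowest, the groups did not overlap, and the difference was -0.34 (SE 0.11, limma adjusted p = 0.0319).

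Also called lower in M against C were Rpl10a, Rplp2, Rpl11, Rps10, Rpl34, Rpl36, Rplp0, Rps3, Rpl27a, Rpl7a, Rpl15 and Rpl30, with differences from -0.3 for Rpl10a to -0.19 for Rpl15 and Rpl30. Unlike most members, Rpl15 had a dim probe. Its log2 Cy5 was 6.53 to 6.77 over the arrays, against a median over all genes tested of 8.02 to 8.03. Of the stalk proteins, which recruit translation factors, Rplp0 and Rplp2 fell by 0.25 and 0.29 and Rplp1 differed by -0.06 (95% interval -0.31 to 0.19). Rpl11 and Rpl5 form with a small rRNA a particle that binds Mdm2 when ribosome assembly fails. Rpl11 fell by 0.26 and Rpl5 differed by -0.01 (95% interval -0.19 to 0.18). Of the genes often used as references in expression assays, Rpl13a, Rpl32 and Rps18 differed by -0.16, -0.16 and 0.05 and did not pass the test (limma adjusted p = 0.111, 0.181 and 0.751), whereas Rplp0 did (limma adjusted p = 0.0358). Rps6, the S6 kinase substrate, differed by 0.11 (95% interval -0.25 to 0.47), Rpsa, which also gives the laminin receptor, by -0.09 and Rps27a, made as a fusion to ubiquitin, by -0.16, and none of these 3 passed. The paralogs Rps4y2 and Rpl22l1 differed by -0.34 and -0.04 and their parents Rps4x and Rpl22 by -0.04 and -0.2, and none passed.

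In cross-fostered pups, 27 members were lower in MM than in CC and none was higher. The median difference was -0.26 against -0.06 over all genes tested, and 75 of 76 members lay below 0, the exception being Rpl4. The 27 made up 35.5% of the members, against a limma background of 12.2% of all genes lower and 7.83% higher. By subunit 17 of 44 standard large-subunit genes and 9 of 29 small-subunit genes were lower, with medians of -0.26 and -0.22. There were 27 members lower on all 4 MM arrays than on every CC array, which was so for 13.2% of all genes. The count was 13 without MM 4 and 16 without CC 2, and within array rows 1 and 2 it was 5 and 8. On CC 1 and CC 2 the summed Cy5 intensity of 5 skeletal muscle markers was 11312 and 10048, against 587 to 738 on the other 14 arrays; without these 2 arrays, a choice made after seeing the data, 6 members were called and the median difference was -0.16. All these refits hold fewer arrays and can call fewer genes of any kind. Whether the smaller counts were particular to the members was not tested. The median difference without CC 1 and CC 2 is not a count, and this limit does not cover it. The part of muscle in the result was not tested, and in pooled tissue fewer cells of a type and less RNA per cell cannot be told apart.

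Rpl23a again lay far apart between the groups. It read -0.58, -0.65, -0.73 and -0.7 on CC and -1.28, -1.11, -0.95 and -1.15 on MM, and differed by -0.46 (SE 0.0758, limma adjusted p = 0.000652). Rps15, a protein of the small subunit's head, read -0.06, -0.45, -0.29 and -0.27 on CC and -1.06, -0.76, -0.43 and -0.63 on MM. MM 3 overlapped CC 2, and the difference was -0.46 (SE 0.13, limma adjusted p = 0.0218). Rpl18 and Rpl37l1 differed by -0.45 and -0.41 (limma adjusted p = 0.00313 and 0.00292). Rpl27a, of the large subunit, read -0.86, -0.79, -0.98 and -0.94 on CC and -1.24, -1.21, -1.42 and -1.27 on MM, with no overlap and a difference of -0.39 (SE 0.0712, limma adjusted p = 0.00137). Rplp0 read -0.64, -0.53, -0.79 and -0.84 on CC and -1, -0.99, -1 and -1.11 on MM, with no overlap and a difference of -0.33 (SE 0.0804, limma adjusted p = 0.00957).

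Of the remaining members set out by role, Rplp2 fell by 0.29 (limma adjusted p = 0.0179) and Rplp1 differed by -0.24 (limma adjusted p = 0.175). Rpl11 fell by 0.26 (limma adjusted p = 0.0372), and Rpl5 differed by -0.16 (95% interval -0.35 to 0.02). The laminin receptor gene Rpsa fell by 0.26 (limma adjusted p = 0.0379). Rpl13a, Rpl32, Rps18, Rps6 and Rps27a differed by -0.17, -0.16, -0.16, -0.17 and -0.18, and none passed. Rpl22 fell by 0.28 (limma adjusted p = 0.0497), while its paralog Rpl22l1 differed by the same -0.28 with a wider interval, -0.73 to 0.16. The other kept probe of Rpl22l1 lay on the other side of 0, at 0.24, whereas that of Rpl22 gave -0.4. Rps4y2 and Rps4x differed by -0.26 and -0.18 and did not pass. Rpl4, a large-subunit protein lining the exit tunnel, lay above 0 in both comparisons, at 0.17 (95% interval -0.05 to 0.39) in M against C and 0.11 (95% interval -0.11 to 0.32) in MM against CC. With each channel alone, scaled by quantiles, its Cy3 was 16.41 to 16.48 on slide 1 and 16.21 to 16.27 on slide 2. Its Cy5 was 14.12 to 14.53 on slide 1 and 14.25 to 14.63 on slide 2.

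**Figure D1:**
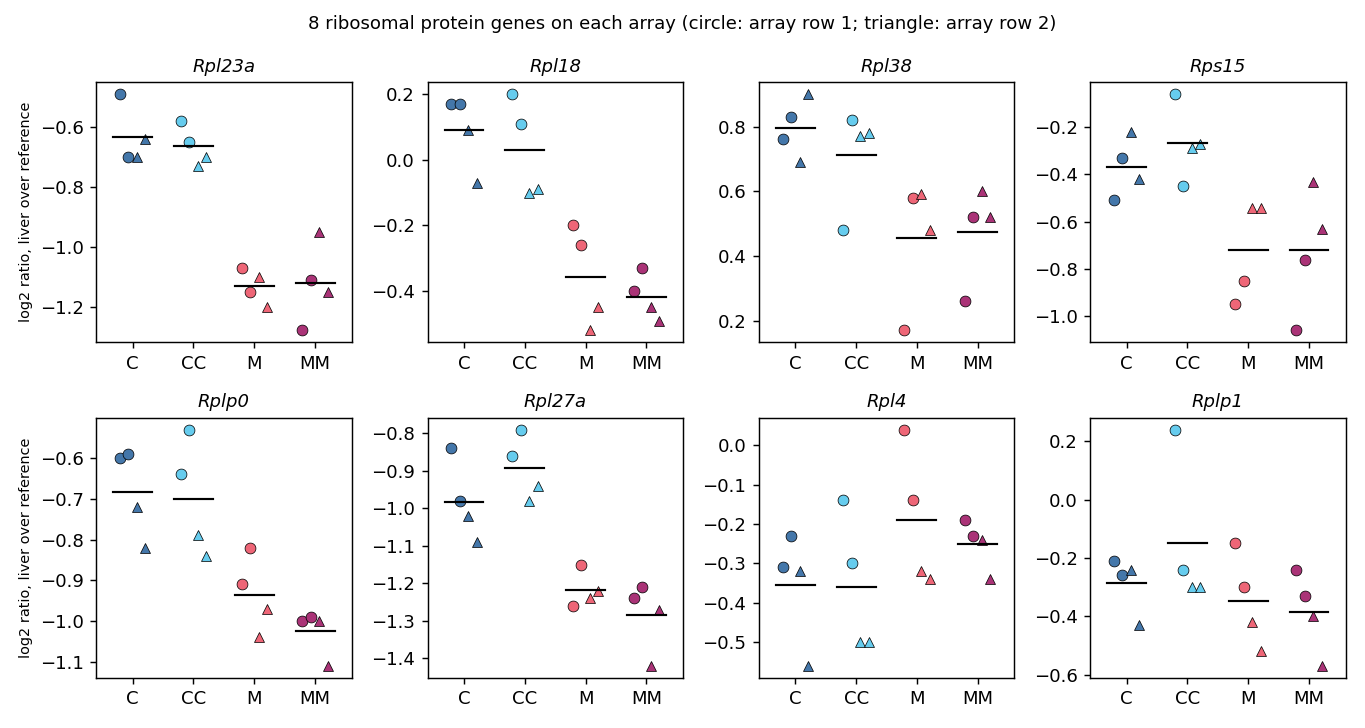
Log2 ratio of liver (Cy5) to reference (Cy3) RNA of 8 ribosomal protein genes on each of the 16 arrays, by group, after loess; circles are arrays of row 1 of a slide, triangles of row 2, and bars are means of 4 arrays. The M and MM arrays of Rpl23a lay between -1.28 and -0.95, below every C and CC array, whereas the groups of Rpl4 and Rplp1 overlapped.

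The 2 mixture comparisons use different arrays, but each sets slide 2 against slide 1. They called 14 members lower in common, 4 only in M against C and 13 only in MM against CC, and 45 in neither, and 59 of 76 members had the lower value in MM against CC. Whether the mixture difference itself differed with cross-fostering was tested as an interaction, which called 0 members. Across members the correlation of the differences was 0.62, a description over 76 genes that share slides and loess curves.

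**Figure D2:**
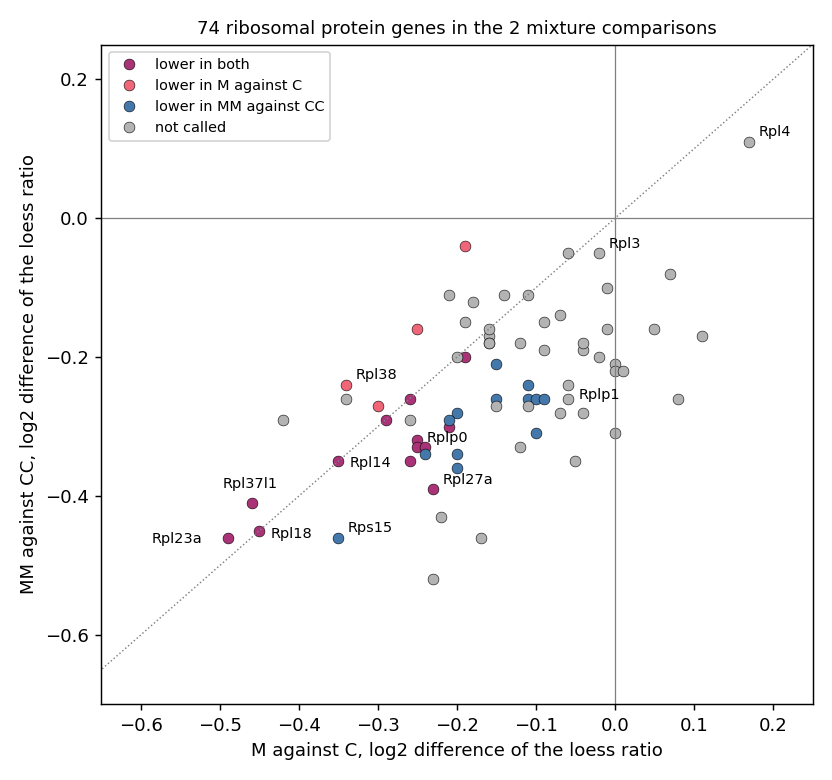
Log2 difference of the loess ratio of 74 of the 76 ribosomal protein genes in M against C (horizontal) and MM against CC (vertical), coloured by which comparison called it lower at an adjusted p of 0.05; the dotted line marks equal differences. Most points lie below 0 on both axes and below the dotted line, and Rpl23a lies at -0.49 and -0.46.

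Each channel was then read alone, scaled between arrays by quantiles. In the liver channel, Cy5, the M against C differences had a median of 0, with 36 members above 0 and 40 below it, and limma called 0 members, against 0.588% of all genes called lower. At an unadjusted p of 0.05, 4 of the 76 members passed, or 5.26%, against 15.9% of all genes. MM against CC had a Cy5 median of -0.07 with 61 members below 0, and limma called 1, Rplp0, against 0.422% of all genes lower. Its Cy5 value was 16.17, 16.25, 15.97 and 16.07 on the CC arrays and 15.76, 15.76, 15.87 and 15.74 on the MM arrays, which do not overlap, and the difference was -0.33 (limma adjusted p = 0.0127). Between M and C the Cy5 of Rplp0 differed by -0.27 (limma adjusted p = 0.0507).

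The reference channel, Cy3, holds no pup RNA, and yet 36 members differed between M and C and 35 between MM and CC, against 66.2% of all genes in each. Of the 36, 23 were higher on slide 2 and 13 lower. The Cy3 value of Rpl23a was 14.19, 14.15, 14.18 and 14.16 on C, 14.16, 14.2, 14.15 and 14.16 on CC, 14.6, 14.62, 14.54 and 14.55 on M and 14.58, 14.56, 14.6 and 14.56 on MM. The slides were apart by 0.41 in both comparisons (limma adjusted p = 4.22e-10 and 3.98e-10), while its Cy5 differed by 0.01 and 0.07 (limma adjusted p = 0.984 and 0.801). Of the members called lower by ratio, 10 of 18 in M against C and 15 of 27 in MM against CC had Cy3 called higher, and 12 of 18 and 24 of 27 had a Cy5 difference below 0. Over all 76 members, Cy3 was called higher in 30.3% and 27.6%, and the Cy5 difference lay below 0 in 40 and 61. For Cy5 the shares of all genes below 0 were 52.8% and 52%. Choosing members by a low ratio itself favours higher Cy3 and lower Cy5, so these counts cannot show which channel made the falls. Rplp0 holds the brightest Cy3 probe on every array, and quantile scaling fixes such a value at 18.7, so its Cy3 difference of 0 carries no information.

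**Figure D3:**
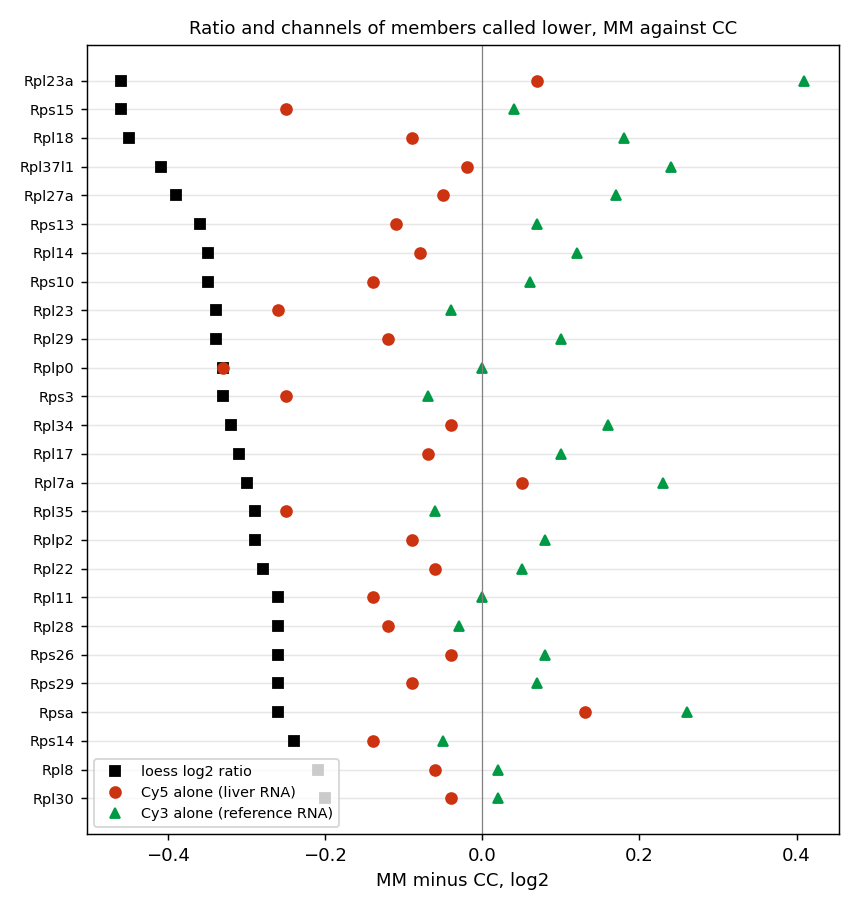
Differences between MM and CC of 26 of the 27 members called lower, on the log2 scale: the loess ratio (squares), Cy5 liver RNA alone (circles) and Cy3 reference RNA alone (triangles), both channels scaled by quantiles. Rpl23a has the highest Cy3 triangle, at 0.41, and Rplp0 the lowest Cy5 circle, at -0.33.

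How far the members lay apart also depended on how the ratio was made. With the arrays centred on their medians and no loess, 71 members were lower in MM against CC and 36 in M against C, with medians of -0.56 and -0.3. Among all genes tested on that ratio, 33.7% were called lower in MM against CC and 20.1% in M against C. When the members' own probes were given no weight in the loess curve, 58 and 18 were lower, with medians of -0.47 and -0.22, where 15.8% and 12.8% of all genes tested were called lower. In the ratio of the scanner software the medians were -0.06 and -0.04, and in the series table that the authors deposited they were -0.05 and 0.01. The scanner ratio had 17 members called in MM against CC, 2 higher and 15 lower, and 13 in M against C, 3 higher and 10 lower. On that ratio 19.8% of all genes tested were called lower in each comparison, and 13% were called higher in MM against CC and 13.6% in M against C. The series table had 7 members called in M against C, 3 higher and 4 lower, and 6 in MM against CC, 1 higher and 5 lower, where 9.97% and 8.59% of all genes tested were called lower and 9.29% and 9.3% higher. Rpl23a, Rpl18 and Rpl37l1 were among those called lower in M against C by all 5 ratios, and Rpl23a, Rpl18, Rpl27a and Rpl7a in MM against CC. In the liver channel alone Rpl7a, like Rpl23a, showed no fall. The Cy5 of Rpl7a read 11.13, 11.05, 10.83 and 10.96 on CC and 11, 11.09, 11.13 and 10.95 on MM. All 5 ratios take the same Cy3 signal as divisor, so a Cy3 difference between the slides enters each of them. They are not separate readings of the liver RNA. The difference of Rpl23a ranged over the 5 ratios from -0.63 to -0.39 in M against C and from -0.73 to -0.32 in MM against CC. By contrast 37 members were called lower by none of the 5 in M against C, and 5 by none in MM against CC.

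**Figure D4:**
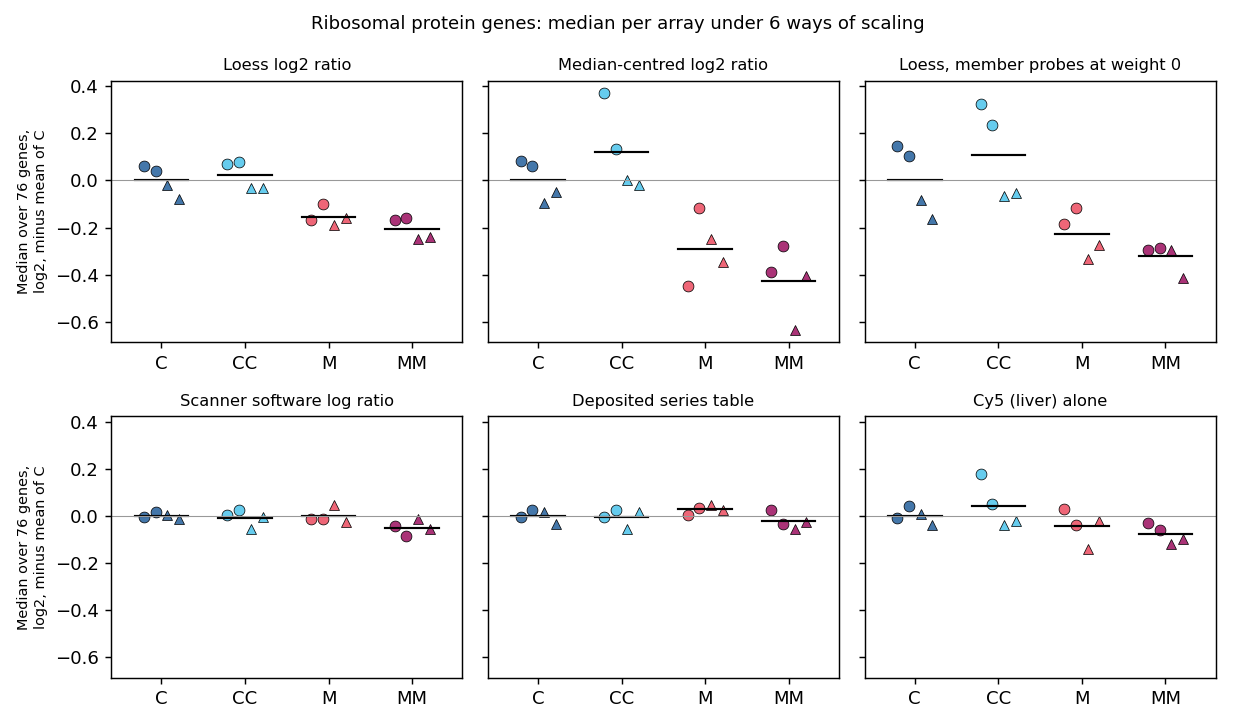
Median over the 76 ribosomal protein genes on each array, on the log2 scale and set to the mean of the C arrays, under 6 ways of scaling; symbols and bars are as in the plot of single genes. The M and MM arrays lie below the C and CC arrays in the loess and median-centred panels, while the groups overlap with the scanner ratio, the series table and Cy5 alone.

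Cross-fostering alone was compared within a slide, and no member was called. In CC against C the median difference was 0.04 (all genes 0.01), and in MM against M it was -0.04 (all genes 0). Limma called 0% of all genes higher and 0% lower in either comparison and in the interaction. At an unadjusted p of 0.05, 0 of 76 members passed in each of these 3, against 336, 275 and 349 of 12072 genes, and 0 members were called under every alternative run. The smallest unadjusted p-values belonged in CC against C to Rps29, 0.16 (limma adjusted p = 1), Rps18, 0.16, Rpl7a, 0.11, and Rpl41, 0.18, and none of them passed. In MM against M they belonged to Rpl9, -0.18 (limma adjusted p = 0.999), Rpl15, 0.09, Rpl7, -0.11, and Rpl5, -0.11. Every member's 95% interval lay within a change of 2-fold, from -0.39 to 0.6 on the log2 scale in CC against C and from -0.66 to 0.37 in MM against M. Rplp0 differed by -0.02 (95% interval -0.19 to 0.15) in CC against C and by -0.09 (95% interval -0.26 to 0.08) in MM against M, and Rpl23a kept log2 ratios from -0.73 to -0.49 on all 8 arrays of slide 1. The median interaction over members was -0.09, and 0 without CC 1 and CC 2.

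The members were also compared by the place of an array on its slide. Each slide holds its arrays in 2 rows, with both groups in each row. On slide 2, row 2 against row 1 had 16 members lower and 4 higher by limma, against 7.6% of all genes lower and 7.94% higher. The lowest were Rpl12 at -0.6 (limma adjusted p = 0.0213), Rpl19 at -0.53 (limma adjusted p = 0.00533) and Rps25 at -0.48 (limma adjusted p = 0.0167), and among the higher were Rpl35a at 0.39 and Rps15 at 0.37. Rpl19, of the large subunit, read -0.47 and -0.6 on M 5 and M 6 and -0.58 and -0.63 on MM 1 and MM 2, all in row 1. In row 2 it read -1.05 and -0.91 on M 7 and M 8 and -1.38 and -1.06 on MM 3 and MM 4. The result depended on the scaling: 0 members were called by row with median centring and 0 with the scanner ratio, where 0.0911% and 0% of all genes were called, and Rpl19 differed by 0.07 with the scanner ratio. The count was 3 without MM 1, 8 without M 5 or without M 7 and 10 without MM 3, each from a fit on fewer arrays. On slide 1 the median row difference was -0.14 and limma called 0 members, against 0.00828% of all genes higher and 0% lower, though 43.4% of the members had an unadjusted p under 0.05, against 17.1% of all genes. There 41 members were called lower when the members' probes had no weight in the loess curve, where 3.2% of all genes were called.

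For 47 members more than 1 probe was kept, which allowed the same gene to be read again, on the same arrays and against the same reference. In M against C and MM against CC the differences of a gene's probes had a median range of 0.13 and 0.1. Probes lay on both sides of 0 in 7 and 3 of the 47 genes. In the row comparison on slide 2 the median range was 0.3, and the probes of 23 genes lay on both sides of 0. The probes of Rpl19 gave -0.53 and 0.28 by row but -0.33 and -0.19 in MM against CC. Those of Rps15 gave 0.37 and -0.35 by row but -0.46 and -0.49 in MM against CC. The 4 probes of Rpl38 gave 0.16, -0.48, -0.1 and -0.17 by row and -0.24, -0.27, -0.35 and -0.33 in MM against CC. The widest range in M against C was that of Rpsa, whose probes gave -0.09 and 0.46, followed by Rpl22 with -0.2 and -0.52. Of all 135 kept probes, 119 lay below 0 in M against C, 131 in MM against CC and 89 in the row comparison. Of all genes tested, 59%, 60.8% and 53.8% lay below 0 in these comparisons.

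**Figure D5:**
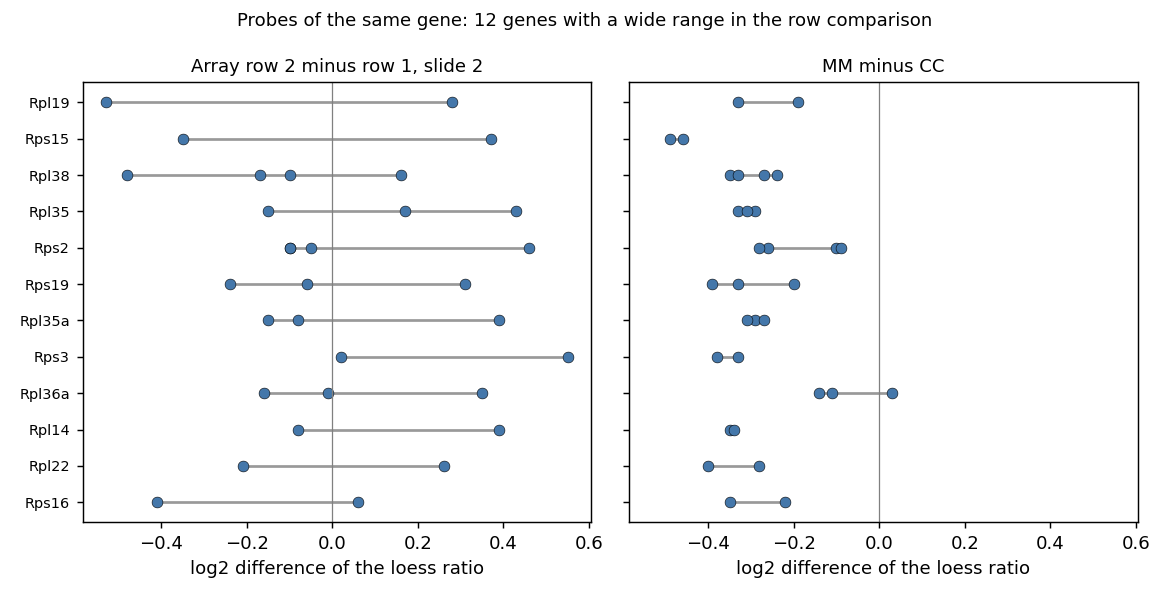
Differences of the loess log2 ratio of each kept probe of 12 genes with a wide range by row: array row 2 minus row 1 on slide 2 (left) and MM minus CC (right), a point per probe, joined within a gene. The probes of Rpl19 and Rps15 lie on both sides of 0 by row and together, below 0, between MM and CC.

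Members with and without the pyrimidine start were set side by side, and the difference between them was not tested. The 23 genes with it had median differences of -0.27 in MM against CC (10 called lower) and -0.11 in M against C (4 called lower). The 38 genes with an entry and no such start had medians of -0.26 (11 called lower) and -0.15 (9 called lower). Over all genes tested, 12.2% were called lower in each comparison. Rplp0, Rpl14 and Rps15 of the windows shown carry the start at the annotated first base, and Rpl18 and Rpl27a do not. Rpl27a does have a run that begins within the wider window around the annotated start, and Rpl18 has none there. The split rests on the exact annotated base: 37.1% of the members' entries had a run there and 61.3% in the wider window.

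The rest of the protein synthesis machinery was read from lists chosen by function, whose counts stand beside 12.2% of all genes called lower in each mixture comparison and 8.19% and 7.83% called higher in M against C and MM against CC. Of 14 tested genes of elongation factors and other mRNAs with a pyrimidine start, 4 were lower and 1 higher in each mixture comparison. Eef1b2, Eef1d and Eef1g, the exchange factor subunits that recharge the elongation factor, fell by 0.22, 0.38 and 0.29 in M against C and by 0.26, 0.33 and 0.29 in MM against CC. Eef2, the translocation factor, rose by 0.56 and 0.32 on the ratio, although its Cy5 differed by -0.11 and -0.3. Rack1, a scaffold on the small subunit, fell by 0.39 in MM against CC (limma adjusted p = 0.0267). Of 32 ribosome biogenesis genes, 3 were lower and 5 higher in M against C, and 9 lower and 0 higher in MM against CC, among them Fbl, the methyltransferase of box C/D particles, at -0.41, and Nop56 and Nop58, its partners, at -0.36 and -0.46. Nop10, of the pseudouridylation particle, was at -0.51 in both on the ratio, although its Cy5 differed by 0 and 0.04. Of 63 mitochondrial ribosomal protein genes, 19 and 16 were lower and 1 and 0 higher. Mrpl27 led the falls at -0.49 and -0.54 on the ratio, with Cy5 differences of -0.02 and -0.05. The medians of the 63 genes were -0.13 and -0.16 on the ratio but -0.02 and -0.04 in Cy5. Of 28 initiation factor genes, 2 and 4 were lower and 3 and 3 higher, close to those shares, of 8 RNA polymerase I genes 2 and 4 were lower, and of 15 growth signalling genes 2 and 1 were lower and 0 and 1 higher.

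Markers of hepatocytes were bright on every array: the 10 genes summed to a Cy5 intensity of 1145675 to 1255748, with no group apart. Muscle markers beyond the 5 tested, including Acta1 and Ckm, did not pass the filter. The 10 Kupffer cell markers summed to 18360 to 21929 on C, 16328 to 21511 on CC, 14955 to 20477 on M and 12966 to 19286 on MM. In MM against CC 2 of these 10 were called lower, as were 4 of the 5 muscle markers. There 1 marker each of hepatocytes, cholangiocytes and stellate cells was called higher. Of all genes, 12.2% were called lower and 7.83% higher in that comparison. The 2 tested markers of exocrine pancreas summed to 7125 on CC 2, 2402 on CC 1, 1951 on MM 1 and 992 on M 6, against 165 to 395 on the other 12 arrays. CC 1 also stood highest for the tested markers of lymphocytes (850 against 366 to 505 on the other arrays), cholangiocytes (787 against 456 to 558) and adipose tissue (959 against 227 to 561). The part of these cells in the members' ratios was not tested. Across arrays, 46.2% to 53.9% of spots were well above background in Cy5, no spot was saturated, and the number of arrays limits the precision.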

How the data were processed

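Liver RNA (Cy5) and reference RNA (Cy3) were measured on 16 Agilent arrays. Per the file headers, the authors read the spots with Agilent Feature Extraction 11.0.1.1. The deposited scanner files hold median spot intensity and local background in both channels and a log10 ratio made by that software. The authors also deposited a series table of log2 ratios, whose normalization is not given in the sources used here. Its column medians ran from -0.0487 to -0.0371. Per array it correlated with the ratios used here at 0.996 to 0.997, with slopes of 0.997 to 1.009, so scale and direction are the same over all probes. The members are offset: their median over C was -0.57 in the series table and -0.39 on the loess ratio.

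From the intensities, background was corrected by normexp with an offset of 50, outlier spots were left out, and log2 ratios were taken after loess within each array with control spots at weight 0. A probe was kept where Cy5 was well above background on at least 3 arrays of a group. Symbols came from RefSeq identifiers of build GRCr8 (18005 of 30367 probes). Groups were compared in limma 3.58.1 over all 16 arrays with Benjamini-Hochberg adjustment over 12072 genes, called at 0.05, and array rows in a fit with a row term per slide. The fits were tested on simulated data.

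Members named were the 6 largest rises and falls called per comparison, or the 4 smallest p-values where fewer than 4 were called, with members set by role, the extreme ratios over C, the extreme SDs and the widest probe ranges; 2 members are not reported here and enter only the fits and the counts. The members and lists were chosen with earlier results of these data known. Alternatives covered scaling, channel, filter, probe choice, array row and each array left out.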

Additional observations from a re-analysis of the deposited data

Results flagged for a closer look

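Of 144 sets of 4 arrays examined, the named members and the median over members in each group, 7 had an array standing far from the other 3, or 4.86%, where chance alone gives about 1 in 20. The measure is the gap to the nearest array as a share of the group's range, and Dixon's limit for 4 arrays was used. On CC 2, Rpl15 read -0.21 against -0.31 to -0.3 on the other CC arrays (0.921). On CC 1, Rpl38 read 0.48 against 0.77 to 0.82 (0.837) and Rplp1 read 0.24 against -0.3 to -0.24 (0.872). On MM 3, Rpl30 read -0.82 against -0.99 to -0.97 (0.861) and Rpl7 read -0.82 against -0.53 to -0.48 (0.832). On MM 4, Rplp0 read -1.11 against -1 to -0.99 (0.937). On C 12, Rps27a read -0.6 against -0.43 to -0.41 (0.9).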

How the results depend on the processing

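The order is M against C, then MM against CC, unless said. The number of members called (main values 18 and 27) was 36 and 71 with median centring, 18 and 58 with the members' probes at weight 0 in the loess, 7 and 6 with the series table, 0 and 1 with Cy5 alone, 36 and 35 with Cy3 alone, and 4 and 5 within array row 1 and 4 and 8 within row 2. It was 17 in MM against CC with the scanner ratio, 10 in M against C without the filter on dim probes, and 6 in MM against CC without CC 1 and CC 2. The median difference (-0.16 and -0.26) was -0.3 and -0.56 with median centring, -0.22 and -0.47 at weight 0, -0.04 and -0.06 with the scanner ratio, 0.01 and -0.05 with the series table, 0 and -0.07 with Cy5, 0.02 and 0.02 with Cy3, and in MM against CC -0.2 within row 2 and -0.16 without CC 1 and CC 2. For CC against C (0.04) it was 0.13 with median centring, 0.12 at weight 0 and -0.04 without CC 1 and CC 2. For MM against M (-0.04) it was -0.12 with median centring and -0.09 at weight 0. For the interaction (-0.09) it was -0.27 with median centring, -0.23 at weight 0, -0.02 with the scanner ratio, 0 with Cy3, -0.03 within row 2 and 0 without CC 1 and CC 2. For rows on slide 1 (-0.14, 0 called) it was -0.22 with median centring, -0.31 at weight 0 with 41 called, -0.03 with the scanner ratio, -0.06 with the series table and 0 with Cy3. For rows on slide 2 (-0.1, 20 called) it was 0.01 with the scanner ratio and 0.01 with Cy3, and 0 members were called with median centring, the scanner ratio and Cy3 and 11 with Cy5. The cause of these changes was not tested, nor was the part of the smaller number of arrays in some fits.

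With each array left out in turn, M against C called 6 to 21 members, MM against CC 13 to 28, rows on slide 1 0 to 2 (2 without MM 3) and rows on slide 2 3 to 25. The titles number the CC and MM samples alike. A replicate block in a fit of these 8 arrays called 16 members with limma, against 12 in the same fit without the block. Same-numbered arrays correlated at 0.34, 0.06, 0.19 and 0.11, so the numbers were not taken as pairs. In both groups, numbers 1 and 2 lie in array row 1 and numbers 3 and 4 in row 2. CC 4 correlated at 0.28 with MM 3, of its own row, and at -0.34 with MM 1, of the other row. The correlations and the counts with the block can therefore reflect array row as well as pairing.

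Named members that passed on the loess ratio, under the alternative or in both changed sign as follows, on the log2 scale. Among the other members called in MM against CC, Rps29 was 0.01 with the scanner ratio and Rpl8 0.02 with the series table. With Cy5 alone Rpl23a was 0.01 and 0.07, Rpl38 was 0.01 in M against C and Rpsa 0.13 in MM against CC. Rpl7a, among the other members called, showed no fall in Cy5 between CC and MM, with the values given above. By row on slide 2, Rpl19 was 0.07 with the scanner ratio and 0.03 with Cy3, and Rps15 was -0.09 and -0.06. Cy3 enters the ratio with the opposite sign. Alone in M against C it was 0.08 for Rpl14, 0.17 for Rpl18, 0.41 for Rpl23a, 0.07 for Rpl32, 0.24 for Rpl37l1, 0.08 for Rpl38, 0.11 for Rplp2, 0.14 for Rps27a, 0.17 for Rps4y2 and 0.26 for Rpsa. In MM against CC it was 0.18 for Rpl18, 0.05 for Rpl22, 0.41 for Rpl23a, 0.17 for Rpl27a, 0.24 for Rpl37l1, 0.08 for Rplp2, 0.04 for Rps15, 0.07 for Rps18, 0.13 for Rps27a and 0.26 for Rpsa. Aquantile scaling, which leaves ratios as they are, the stricter filter, no background correction, the mean of a gene's probes and array row as a block, also within each slide (added after seeing the data), moved no count of members called by over 1.5 times.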
